A study of Mus musculus with 18 samples.

Results

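The genes described here mark Cajal-Retzius cells or act in them: Reln, Trp73, Calb2, Lhx1, Lhx5, Nhlh2, Ebf3, Ndnf and Car10. The 9 genes were matched by symbol to Ensembl identifiers and are 9 of the 47729 genes listed in the RNA files, and all 9 passed the filter on low counts that left 15000 genes for testing. RNA and H3K9ac (histone H3 acetylated at lysine 9, a mark of active promoters and enhancers) were profiled in whole cortex of mouse embryos at embryonic day E15.5. The RNA groups were 4 libraries of BAF155 cKO cortex given Vehicle and 4 of BAF155 cKO cortex given TSA (trichostatin A, an inhibitor of histone deacetylases), and H3K9ac had 4 Vehicle and 4 TSA libraries of the same genotype and age. BAF155 is a core subunit of the BAF chromatin remodelling complex, and cKO stands for conditional knockout. Every group carries the knockout and no sample with the intact gene was analysed here, so TSA is set against Vehicle within the mutant alone. The sources used here name neither the Cre driver nor the dose of TSA. Replicates may or may not be separate embryos, which the labels leave unsaid, and p-values then measure the spread between these libraries, which may be technical. In RNA, TSA 4 differs from TSA 1 to 3 in the sex-linked counts given below, so the TSA libraries are not all repeats of the same sample.

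Cajal-Retzius cells are among the first neurons of the cortex and lie in its outermost layer, the marginal zone. They are born at the rim of the cortical field, in the cortical hem, the septum, the border between pallium and subpallium and the thalamic eminence, and spread over the surface. They are known for secreting reelin, the product of Reln, which binds the receptors VLDLR and APOER2 (Lrp8) on migrating neurons, leads to phosphorylation of the adaptor DAB1 by Src-family kinases, and orders the cortical layers. None of the 9 genes is confined to these cells: Reln, Calb2 and Ndnf are also made by inhibitory interneurons, and Lhx1, Lhx5 and Ebf3 by other forebrain neurons. In RNA of whole cortex, fewer cells of a type and less RNA per cell cannot be told apart.

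Total counts ranged from 6733415 (TSA 1) to 20400727 (TSA 3) per library. All 6 genes of a list of cortical identity (Emx1, Neurod6, Tbr1, Bcl11b, Slc17a7 and Neurog2) were detected, with a summed level of 1037 to 1544 CPM (reads per gene after scaling the libraries to equal totals) in Vehicle and 1866 to 2098 CPM in TSA. Each of the 9 Cajal-Retzius cell genes was counted in every library, the lowest value being 32 reads for Lhx5. Xist, the RNA of the inactive X chromosome, had 25666 to 44947 counts in the 4 Vehicle libraries and 37218 in TSA 4, but 2, 26 and 10 counts in TSA 1, 2 and 3. TSA 1, 2 and 3 held 252, 996 and 1111 counts of the Y-linked Ddx3y, and no other library more than 19. Sex and treatment are thus largely confounded, and a fit with Xist status as a covariate takes the TSA effect from TSA 4 against the 4 Vehicle libraries.

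The members differ in the sequence just upstream of their start sites, which is shown for the 3 genes whose start windows are contrasted below in the H3K9ac lists. The 250 bases before the RefSeq start are given 5′ to 3′ on the strand of the gene (GRCm38.p6, which is mm10). Capitals mark matches on either strand to the E-box CANNTG, a motif of basic helix-loop-helix factors such as Nhlh2, and to CCCNNGGG, the core bound by EBF factors such as Ebf3.
Reln (chr5:22344706-22344955, minus strand): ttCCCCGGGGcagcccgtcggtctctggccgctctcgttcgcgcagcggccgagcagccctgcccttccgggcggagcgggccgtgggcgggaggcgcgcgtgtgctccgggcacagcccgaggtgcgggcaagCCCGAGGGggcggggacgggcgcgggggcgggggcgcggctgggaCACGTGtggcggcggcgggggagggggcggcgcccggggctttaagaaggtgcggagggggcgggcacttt
Trp73 upstream start (chr4:154139876-154140125, minus strand): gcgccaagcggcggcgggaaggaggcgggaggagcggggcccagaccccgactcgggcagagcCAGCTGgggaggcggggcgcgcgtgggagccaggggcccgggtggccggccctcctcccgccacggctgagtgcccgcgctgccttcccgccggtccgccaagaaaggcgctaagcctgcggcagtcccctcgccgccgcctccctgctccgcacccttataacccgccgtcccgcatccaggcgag
Trp73 internal start (chr4:154097174-154097423, minus strand): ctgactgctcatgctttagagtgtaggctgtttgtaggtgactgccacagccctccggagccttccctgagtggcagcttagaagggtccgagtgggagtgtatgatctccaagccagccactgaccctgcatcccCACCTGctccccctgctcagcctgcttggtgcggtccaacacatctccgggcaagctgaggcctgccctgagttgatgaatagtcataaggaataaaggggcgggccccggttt
Nhlh2 (chr3:102009895-102010144, plus strand): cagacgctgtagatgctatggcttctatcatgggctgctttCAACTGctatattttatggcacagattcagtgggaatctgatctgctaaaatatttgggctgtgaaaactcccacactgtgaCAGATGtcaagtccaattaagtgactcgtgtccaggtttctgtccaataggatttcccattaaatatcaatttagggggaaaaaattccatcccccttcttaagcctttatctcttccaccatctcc
The Reln stretch had a GC content of 80.0% with 37 CpG dinucleotides, and that before the upstream Trp73 start 77.2% with 31. The internal Trp73 start followed a stretch with 58.4% GC and 6 CpG; the gene is known to be read also from an internal start, which gives a shorter protein without the N-terminal transactivation domain. The Nhlh2 stretch had 42.0% GC and 2 CpG. Over 32851 RefSeq promoters of the same length, the medians were 52.4% GC and 6 CpG. Reln had 1 E-box, 71 bases before its start, and 2 EBF cores, while Nhlh2 had 2 E-boxes and each Trp73 start 1. An E-box occurred in 66.2% and an EBF core in 11.8% of the 32851 promoters, and these 2 motifs do not overlap in the stretches shown.

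Reln (ENSMUSG00000042453, chromosome 5, 21884454 to 22344705) was higher in TSA. It read 513.0, 536.4, 504.0 and 485.6 CPM across Vehicle 1 to 4, and 747.9, 708.0, 681.1 and 632.7 CPM across TSA 1 to 4. Every TSA library lay above every Vehicle library, TSA 4 lowest among the former and Vehicle 4 among the latter. The means were 509.8 ± 21.1 and 692.4 ± 48.4 CPM (SD, n = 4 each), a difference of 0.44 ± 0.09 on the log2 scale (SE, 95% interval 0.24 to 0.64, edgeR adjusted p = 0.00241). With Xist status as a covariate it was 0.31 and did not pass (edgeR adjusted p = 0.196). Reln spans 460 kb, and with each library's trend of log2 CPM over genomic span removed its change was 0.22 (limma adjusted p = 0.0698).

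Trp73 (ENSMUSG00000029026, chromosome 4, 154056249 to 154139875) encodes p73, a p53-family transcription factor that marks Cajal-Retzius cells of hem origin and is needed for their survival. It read 61.3, 52.1, 49.73 and 60.8 CPM across Vehicle, against 49.5, 46.3, 49.72 and 46.0 CPM across TSA. The groups did not overlap, but Vehicle 3 and TSA 3 were equal to 3 digits. The log2 fold change of −0.23 ± 0.09 (SE, 95% interval −0.43 to −0.025) did not pass (edgeR adjusted p = 0.0795, p before adjustment 0.0302). It passed with the span trend removed (−0.30, limma adjusted p = 0.0317) and without Vehicle 2 or Vehicle 3 (edgeR adjusted p = 0.0450 and 0.0459), and was −0.092 without Vehicle 1 and 4, the libraries with the largest mitochondrial shares (2.86% and 3.36%, the others at most 1.997%).

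The ratio of Reln to Trp73 within a library was taken as a description, since Reln is also made by other cells. It was 8.36, 10.3, 10.1 and 7.99 in Vehicle and 15.1, 15.3, 13.7 and 13.8 in TSA. The ratios could not overlap, since all TSA libraries lay above Vehicle for Reln and below it for Trp73. The summed level of the 8 members other than Reln came to 261, 238, 243 and 262 CPM across Vehicle, against 202, 195, 271 and 198 CPM across TSA. TSA 1, 2 and 4 lay below all Vehicle libraries in that sum, and TSA 3 above all of them.

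Calb2 (ENSMUSG00000003657, chromosome 8, 110142526 to 110168212), which encodes the calcium-binding protein calretinin of Cajal-Retzius cells and of a class of interneurons, was lower in TSA. It read 32.6, 34.9, 41.7 and 44.8 CPM across Vehicle, against 18.1, 18.0, 30.6 and 25.9 CPM across TSA. All TSA libraries lay below all Vehicle libraries, TSA 3 nearest to them. The means were 38.5 ± 5.71 and 23.1 ± 6.18 CPM (SD, n = 4 each), and the log2 fold change was −0.72 ± 0.17 (SE, 95% interval −1.08 to −0.36, edgeR adjusted p = 0.00494). With Xist status as a covariate it was −0.57 and did not pass (edgeR adjusted p = 0.210). Markers of inhibitory neurons moved with it: 11 of 18 listed genes fell and 2 rose (4 and 0 with Xist status as a covariate), none was at 0 in all libraries, and their summed level was 1382 to 1747 CPM in Vehicle and 823 to 1135 CPM in TSA. Among all tested genes 17.6% fell and 15.4% rose. Dlx1 and Dlx5, homeobox genes of inhibitory neurons, changed by −1.16 ± 0.12 and −1.29 ± 0.19 on the log2 scale. Sp8 changed by −0.93 ± 0.15 and Gad1, which makes GABA, by −0.91 ± 0.15 (SE, edgeR adjusted p of these 4 genes from 2.60e-05 to 0.000558). Nkx2-1 and Lhx6, genes of the medial ganglionic eminence, rose by 2.22 ± 0.45 and 0.51 ± 0.12. With Xist status as a covariate Dlx5, Sp8, Nkx2-1 and Lhx6 had −0.87, −0.69, 2.07 and 0.27 and did not pass (edgeR adjusted p = 0.0504, 0.0706, 0.0604 and 0.346), nor Nkx2-1 without Vehicle 1 and 4 (0.0911). Their part in the levels of Calb2 and Reln was not tested.

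Of the other members, 4 encode transcription factors of Cajal-Retzius neurons, and none of them passed the test in the 8 libraries. Lhx1 (ENSMUSG00000018698, chromosome 11, 84517975 to 84525534), a LIM-homeobox gene, read 11.1, 8.38, 8.82 and 11.4 CPM across Vehicle, against 7.47, 7.57, 12.8 and 8.94 CPM across TSA. Its relative Lhx5 (ENSMUSG00000029595, chromosome 5, 120431886 to 120441457), which bears on the distribution of Cajal-Retzius cells, read 8.11, 6.90, 7.58 and 7.84 CPM across Vehicle, against 4.88, 5.54, 10.7 and 7.50 CPM across TSA. In both genes TSA 3 was the highest of all 8 libraries and TSA 1 and 2 were the lowest. The log2 fold changes were −0.084 ± 0.19 for Lhx1 (95% interval −0.49 to 0.32) and −0.054 ± 0.21 for Lhx5 (−0.51 to 0.40), with edgeR adjusted p of 0.775 and 0.876. Lhx1os, transcribed from the start of Lhx1, and Gm27199, next to Lhx5, were named after their values were seen. Both had a log2 fold change of −0.58 which missed the threshold (edgeR adjusted p = 0.0925 and 0.196; Lhx1os 0.0347 without Vehicle 2). In the RefSeq table neither overlaps its neighbour.

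Nhlh2 (ENSMUSG00000048540, chromosome 3, 102010111 to 102015492), a helix-loop-helix factor of young neurons, read 62.7, 55.4, 48.6 and 56.3 CPM across Vehicle, against 46.3, 47.3, 69.8 and 46.3 CPM across TSA. TSA 1, 2 and 4 lay close together below all Vehicle libraries, and TSA 3 lay above all of them. The change was −0.081 ± 0.13 (SE, 95% interval −0.37 to 0.21, edgeR adjusted p = 0.688). Ebf3 (ENSMUSG00000010476, chromosome 7, 137193671 to 137322805), which with Ebf2 marks Cajal-Retzius cells of the hem and septum, read 40.4, 35.3, 36.2 and 36.3 CPM across Vehicle, against 26.8, 24.5, 50.9 and 31.5 CPM across TSA. It showed the same order, with 3 TSA libraries below and TSA 3 above all of Vehicle, and a change of −0.14 ± 0.19 (SE, 95% interval −0.54 to 0.27, edgeR adjusted p = 0.625).

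The secreted protein and the carbonic anhydrase-related protein of the set did not pass either. Ndnf (ENSMUSG00000049001, chromosome 6, 65671611 to 65712323), which encodes a secreted neurotrophic factor, read 38.0, 34.0, 39.5 and 34.4 CPM across Vehicle, against 39.3, 39.9, 29.7 and 26.3 CPM across TSA. Here TSA 3 and 4 were the lowest and TSA 1 and 2 as high as Vehicle, and the change was −0.12 ± 0.13 (SE, 95% interval −0.40 to 0.16, edgeR adjusted p = 0.541). Car10 (ENSMUSG00000056158, chromosome 11, 93096805 to 93601751), whose product lacks the enzyme activity of its family, read 6.94, 10.6, 11.0 and 9.82 CPM across Vehicle, against 9.45, 6.04, 17.1 and 5.75 CPM across TSA. Its TSA libraries had a coefficient of variation of 55.2% against 18.9% in Vehicle, and its change of 0.014 ± 0.31 had a 95% interval from −0.66 to 0.69 (edgeR adjusted p = 0.978).

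**Figure D1:**
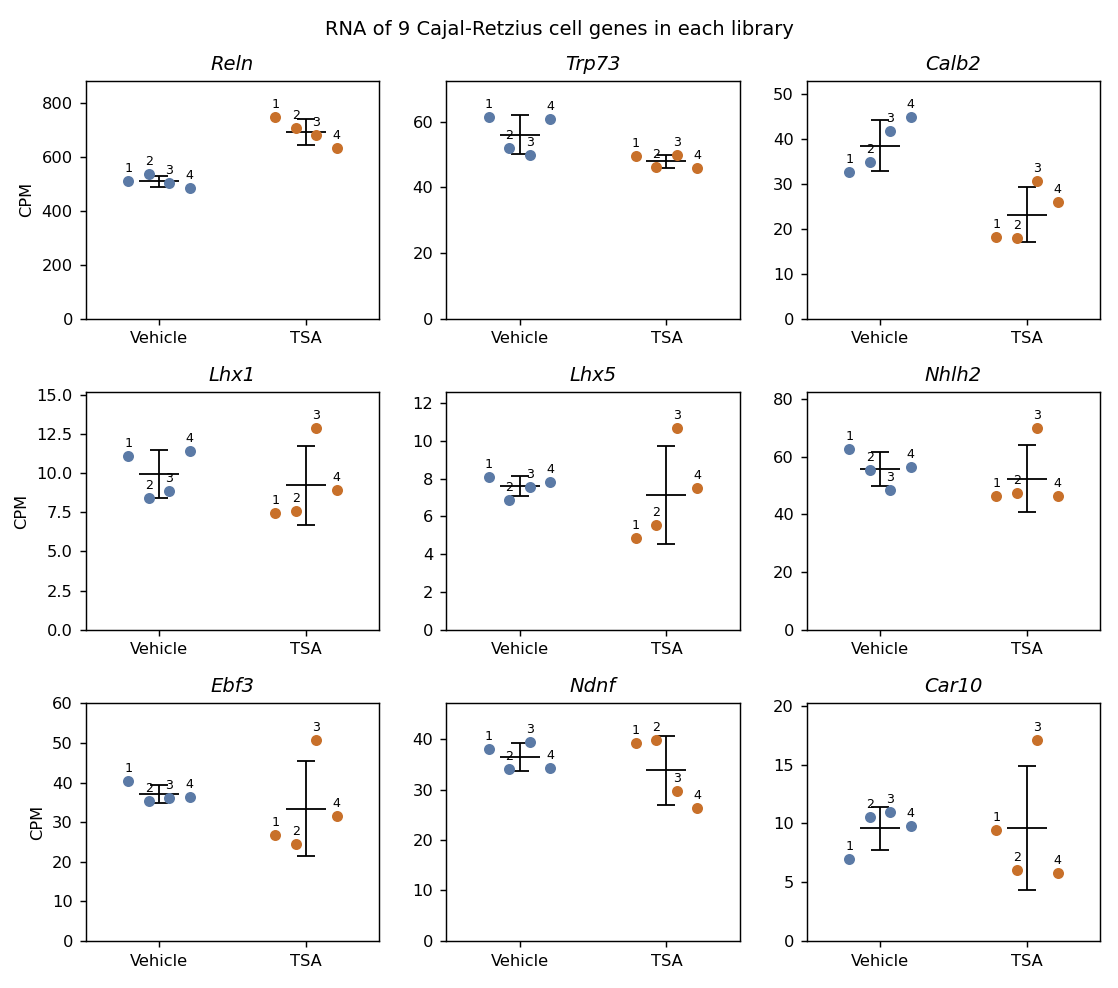
RNA level (CPM, y axis from 0) of each gene in the 4 Vehicle and 4 TSA libraries, points numbered by replicate, with the mean and SD of each group. All TSA points lie above Vehicle for Reln and below it for Calb2, and TSA 3 is the highest of all 8 points for Nhlh2, Lhx1, Lhx5, Ebf3 and Car10.

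Counted over the set, 1 of 9 genes rose and 1 fell, beside 15.4% and 17.6% of all 15000 tested genes (2 of 9 and 33.0% in either direction). The median log2 fold change of the 9 was −0.084 and that of all tested genes −0.011. The groups did not overlap for 3 of the 9 genes, beside 32.3% of all tested genes: 1 lay wholly above Vehicle (14.9%) and 2 wholly below (17.4%). These counts lie near or below those shares and show nothing particular to the set.

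TSA 3 set many of these values. It was the highest of the 4 TSA libraries in 7 of 9 members, beside 28.3% of all tested genes, and the highest of all 8 libraries in 5 of 9, beside 10.2%. Against the mean of the other TSA libraries, its level was 2.42 times as high for Car10, 1.84 for Ebf3, 1.79 for Lhx5, 1.61 for Lhx1, 1.497 for Nhlh2 and 1.48 for Calb2. For Trp73, Reln and Ndnf the ratio was 1.05, 0.978 and 0.844. Leaving out a library in which most members were highest lowers their changes by itself. Without TSA 3, 8 of the 9 log2 fold changes were below 0, and of these only Car10 (0.014) was above 0 before. Then 1 gene was higher and 2 were lower (13.7% and 15.9% of 15226 tested genes). Ebf3 then passed at −0.42 (edgeR adjusted p = 0.0156) and Calb2 at −0.88 (0.00101), and Reln remained higher at 0.45 (0.00654). Of 17 alternatives this was the only 1 in which Ebf3 passed. Car10 had −0.48 (0.112), Lhx5 −0.32 (0.224), Lhx1 −0.30 (0.219), Nhlh2 −0.26 (0.0855), Trp73 −0.25 (0.103) and Ndnf −0.059 (0.802), none of which passed.

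Markers of the thalamic eminence and thalamus were also highest in TSA 3. The summed level of 12 such genes was 401.5 CPM there, at most 289.2 CPM in the other TSA libraries and 201 to 289.3 CPM in Vehicle. Most of the sum in TSA 3 came from Zic1 and Zic4, with 205.3 and 91.9 CPM. TSA 3 was the highest TSA library in 9 of the 12, and 5 of the 12 (Barhl1, Irx1, Irx2, Irx3 and Pou4f1) were too low to be tested. Tcf7l2, a transcription factor of the thalamus, had 26.1 CPM in TSA 3 against 10.4 to 12.8 CPM in the other TSA libraries and 4.83 to 6.601 CPM in Vehicle, and rose by 1.42 ± 0.27 on the log2 scale (SE, edgeR adjusted p = 0.00131; 0.156 with Xist status as a covariate). Zic1, Zic4 and Otx2, of the same list, had log2 fold changes of 0.19 ± 0.18, 0.22 ± 0.24 and 0.23 ± 0.32 which missed the threshold (edgeR adjusted p from 0.462 to 0.626). The 10 choroid plexus genes summed to 39.0 CPM in TSA 3, at most 19.99 CPM in the other TSA libraries and 16.7 to 23.3 CPM in Vehicle. Of the sum in TSA 3, Foxj1 made up 17.0 CPM and Otx2, which the thalamic list also holds, 14.02 CPM. Ttr, a defining gene of the choroid plexus, had 0.642 CPM in TSA 3 and 1.52 CPM in TSA 1. Among all tested genes 15.4% rose. Of 7 choroid plexus genes tested, 1 rose, the cilia factor Foxj1 (1.25 ± 0.25, edgeR adjusted p = 0.00168; 0.112 with Xist status as a covariate), while Ttr and Sostdc1, secreted products of that tissue, had −2.28 ± 0.88 and −0.47 ± 0.40 and did not pass (0.0703 and 0.405), although Ttr passed without Vehicle 3 (0.0131) and with lane as a covariate (0.0231). The part of these tissues in the members' levels in TSA 3 was not tested.

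**Figure D2:**
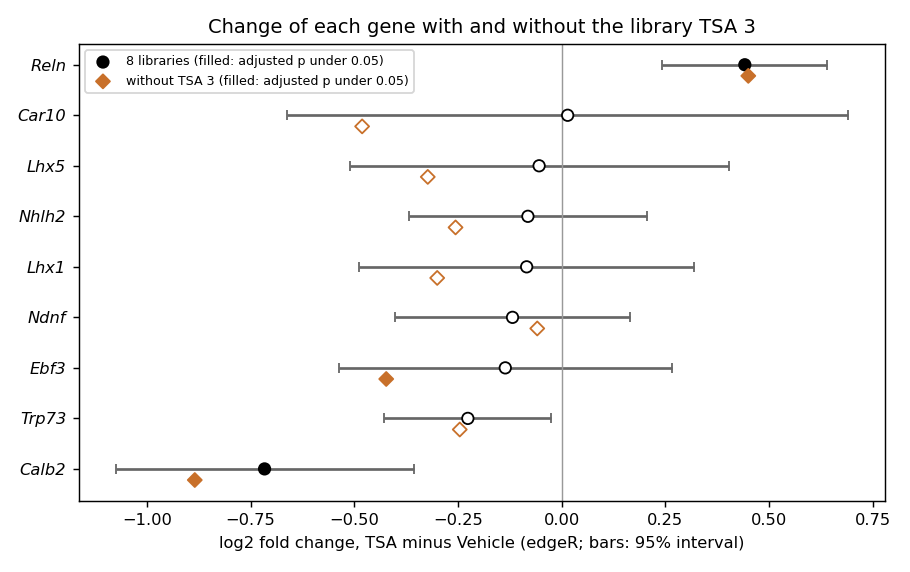
Log2 fold change of each gene, TSA minus Vehicle (x axis), over 8 libraries (circles, with the 95% interval) and without TSA 3 (diamonds); filled symbols passed at an edgeR adjusted p under 0.05. Without TSA 3, Ebf3 joins Calb2 among the genes that passed below 0, and Reln stays at 0.45.

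Among 13 further genes reported in Cajal-Retzius cells, 2 rose and 2 fell, beside 15.4% and 17.6% of all tested genes. The median log2 fold change of the 13 was 0.21. As in the members, TSA 3 was often the highest of all 8 libraries, in 8 of the 13 beside 10.2% of all tested genes. Eomes and Tbr1, T-box genes that intermediate progenitors and young glutamatergic neurons also express, rose by 2.09 ± 0.15 and 0.90 ± 0.11 (SE, edgeR adjusted p = 1.36e-06 and 7.53e-05). Cxcr4, the chemokine receptor that holds Cajal-Retzius cells at the surface and is used by interneurons too, changed by −1.05 ± 0.11 (edgeR adjusted p = 3.94e-05), and the adhesion gene Cntnap2 by −0.51 ± 0.15 (0.0162). Cxcl12, the CXCR4 ligand made by the meninges, rose by 1.11 ± 0.12 (edgeR adjusted p = 3.23e-05). Other meningeal genes went the other way or did not pass: Dcn changed by −1.11 ± 0.24 (edgeR adjusted p = 0.00258), Crabp2 by −1.13 ± 0.31 (0.0112), and Igf2 by −0.20 ± 0.13 (0.259; −0.42 and 0.0107 without Vehicle 1 and 4). The 12 meningeal genes summed to 71.4 to 99.3 CPM in Vehicle and 84.6 to 96.0 CPM in TSA. Of the 13 Cajal-Retzius genes, 5 passed below 0 without TSA 3 and 1 without Vehicle 4 or TSA 1, and 4 passed above 0 without TSA 2. Cntnap2, Dcn and Crabp2 did not pass with Xist status as a covariate, at −0.61, −1.28 and −1.01 (edgeR adjusted p = 0.131, 0.0641 and 0.237), nor did Cntnap2 without Vehicle 4 (0.0640) or TSA 1 (0.0558).

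A list of relatives of the members did not follow them as a group. Of 9 tested genes, 2 rose and 2 fell, beside 15.4% and 17.6% of all tested genes. Ndp, 1 of those that fell, is like Ndnf in name but not in sequence, and the counts include it. The rises numbered 1 without Vehicle 3, Vehicle 4, TSA 2, TSA 3 or TSA 4, and the falls 1 without Vehicle 2 or Vehicle 4. Ebf2, the close relative of Ebf3, read 4.68, 6.77, 6.75 and 4.91 CPM across Vehicle, against 3.05, 2.43, 11.6 and 3.94 CPM across TSA. As for Ebf3, 3 TSA libraries lay below and TSA 3 above all of Vehicle, the change was −0.081 ± 0.42 (SE, edgeR adjusted p = 0.907), and without TSA 3 it was −0.88 (0.0145). Ebf1 changed by −1.46 ± 0.42 (0.0260) with overlapping groups and 15.3 to 70.4 CPM among the Vehicle libraries, and Ebf4 by 0.65 ± 0.23 (0.0482), again with overlap. Ebf1 did not pass without Vehicle 2, Vehicle 4 or TSA 3 (edgeR adjusted p = 0.0910, 0.0612 and 0.0947), with lane (0.0855) or Xist status (0.264) as a covariate or without the filter (0.125). Ebf4 passed without Vehicle 1 and did not pass without any other library (0.0647 to 0.124) or with Xist status as a covariate (0.227). Trp53, the relative of Trp73, rose by 0.49 ± 0.11 (edgeR adjusted p = 0.00404), and Ndp changed by −0.63 ± 0.16 (0.00706), which did not pass with Xist status as a covariate (−0.87, 0.0504). Nhlh1, the closest relative of Nhlh2, averaged 30.1 ± 8.40 CPM under Vehicle and 40.4 ± 7.78 CPM under TSA (SD, n = 4 each) and missed the threshold (edgeR adjusted p = 0.0811), but passed with lane as a covariate (0.0293), without the filter (0.00228), with the span trend removed (limma adjusted p = 0.0400) and without Vehicle 2 or TSA 1 (0.00635 and 0.0429). Calb1 had a log2 fold change of −0.47 ± 0.32, Car8 of −0.24 ± 0.20 and Car11 of −0.046 ± 0.16 (SE, edgeR adjusted p = 0.299, 0.416 and 0.859), and Calb1 passed without TSA 3 (−0.85, 0.0272).

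Signals of the places where Cajal-Retzius cells are born showed 3 rises (1 without Vehicle 4) and 1 fall among 13 tested of 17 listed genes (median −0.15). Among all tested genes 15.4% rose and 17.6% fell. Wnt5a, a Wnt ligand of the hem, changed by −0.58 ± 0.10 (SE, edgeR adjusted p = 0.000626). Sfrp2, a secreted Wnt modulator of the border between pallium and subpallium, rose by 0.60 ± 0.12 (0.00153), Rspo3, an enhancer of Wnt signalling, by 0.48 ± 0.14 (0.0158) and Fgf18 by 0.76 ± 0.25 (0.0279). The rises of Sfrp2, Rspo3 and Fgf18 did not pass with Xist status as a covariate (edgeR adjusted p = 0.0674, 0.364 and 0.360), that of Rspo3 also not without Vehicle 4 (0.0541) or TSA 3 (0.0629), and that of Fgf18 not without Vehicle 1, Vehicle 4, TSA 1 or TSA 2 (0.0652 to 0.0820). Without both Vehicle 1 and 4, Rspo3 and Fgf18 did not pass either (0.136 and 0.151). Bmp4, Dbx1, Fgf8 and Msx1 of the same list were too low to be tested.

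Cortical transcription factors that hold progenitors back from the Cajal-Retzius fate or set the size of the hem rose in 5 of 7 tested cases (3 without Vehicle 1 and 4, and 1 in the fit with Xist status), and none fell (median 0.55). Among all tested genes 15.4% rose and 17.6% fell. Emx1 rose by 0.82 ± 0.18 (SE, edgeR adjusted p = 0.00344), Dmrta2 by 0.76 ± 0.17 (0.00423) and Hes1, a Notch effector, by 0.55 ± 0.14 (0.00858). Lhx2, a LIM-homeobox selector gene of the cortex whose loss enlarges the hem, rose by 0.45 ± 0.13 (0.0125). Dmrta2, Hes1 and Lhx2 did not pass with Xist status as a covariate, at changes of 0.83, 0.60 and 0.60 (edgeR adjusted p = 0.0656, 0.106 and 0.0651), nor Emx1 without Vehicle 1 and 4 (0.0620).

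Downstream of reelin, 11 of 25 genes of its receptors and signalling chain rose and 6 fell (median 0.20). Among all tested genes 15.4% rose and 17.6% fell. Without TSA 1, 7 of the 25 rose. In the fit with Xist status, 2 rose and 3 fell. Dab1, the adaptor, and the receptors Lrp8 and Vldlr were named for their roles after their values were seen. Dab1 rose from 219 ± 35.6 CPM to 366 ± 37.2 CPM, by 0.74 ± 0.12 on the log2 scale (edgeR adjusted p = 0.000418). Lrp8 rose from 374 ± 25.7 to 500.2 ± 18.7 CPM, by 0.42 ± 0.09 (0.00250), but did not pass with Xist status as a covariate (0.44, 0.0722). Vldlr had 112 ± 0.64 and 116 ± 11.3 CPM (SD, n = 4 each), a change of 0.057 ± 0.086 (0.661). Rapgef1, the exchange factor that activates RAP1, rose by 0.59 ± 0.09 (edgeR adjusted p = 0.000332).

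The 6 falls in the reelin list were at several steps of the chain. Rap1b and Rap1a, small GTPases that Rapgef1 activates, changed by −0.94 ± 0.10 and −0.84 ± 0.13 (SE, edgeR adjusted p = 4.20e-05 and 0.000307). Rnf7, part of the ubiquitin ligase that removes phosphorylated DAB1, changed by −1.14 ± 0.12 (3.57e-05). The kinase gene Yes1 changed by −0.57 ± 0.10, the adaptor gene Crk by −0.47 ± 0.09 and the integrin gene Itgb1 by −0.37 ± 0.10 (edgeR adjusted p = 0.000727, 0.00112 and 0.0145). These 3 did not pass with Xist status as a covariate, at changes of −0.57, −0.50 and −0.43 (edgeR adjusted p = 0.0518, 0.0573 and 0.147), and Itgb1 not without TSA 1 (0.0663).

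**Figure D3:**
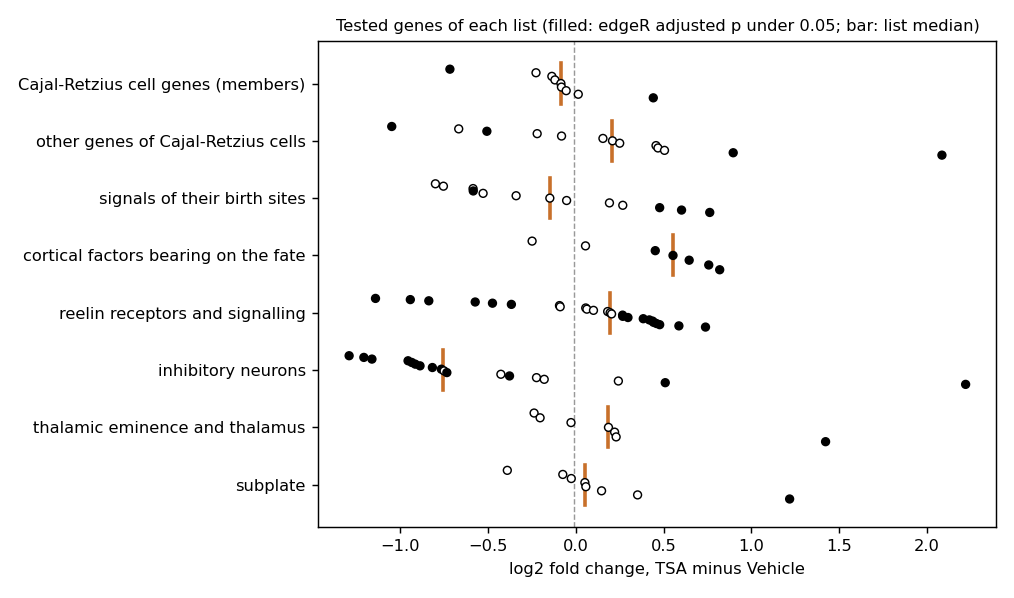
Log2 fold change, TSA minus Vehicle (x axis), of each tested gene in 8 lists (rows); filled points passed at an edgeR adjusted p under 0.05, orange bars are list medians and the dashed line is the median of all 15000 tested genes. The factors bearing on the Cajal-Retzius fate lie mostly above 0 (median 0.55) and the inhibitory neuron genes mostly below (median −0.76), while the 9 members have a median of −0.084.

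Genes that mark other neurons holding some of the members were set beside them, and beside all tested genes, of which 15.4% rose and 17.6% fell. Of 8 tested subplate genes, 1 rose and none fell (median 0.055): Lpar1 rose by 1.22 ± 0.17 (SE, edgeR adjusted p = 0.000148), while Nr4a2, Nxph4 and Inpp4b had log2 fold changes of 0.35 ± 0.15, 0.15 ± 0.12 and −0.39 ± 0.32 which missed the threshold (0.0818, 0.366 and 0.390). Nr4a2 passed without Vehicle 1 (0.51, 0.00878), without both Vehicle 1 and 4 (0.0168), without the filter (0.0146) and with the span trend removed (limma adjusted p = 0.0401). In a list of the olfactory bulb, whose output neurons also make reelin, 2 of 6 tested genes rose and 1 fell. Cdhr1 changed by −2.78 ± 0.21 and Eomes, named above, by 2.09 ± 0.15 (edgeR adjusted p = 1.49e-06 and 1.36e-06). Slc17a6, a glutamate transporter gene of that list, rose by 0.27 ± 0.09 (0.0306), and did not pass with Xist status as a covariate (0.318), without the filter on low counts (0.0536), with the span trend removed (limma adjusted p = 0.0516) or without Vehicle 3, TSA 3 or TSA 4 (edgeR adjusted p = 0.0900, 0.119 and 0.0606), nor, by the narrowest margin, without TSA 1. Barhl2, listed both there and among genes of Cajal-Retzius cells, had 4.33 to 5.86 CPM in Vehicle and 2.74, 3.16, 8.25 and 3.19 CPM in TSA, once more with TSA 3 alone above Vehicle. Its change was −0.22 ± 0.31 (edgeR adjusted p = 0.629), and without TSA 3 it was −0.77 (0.0142).

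The members' profiles over the 8 libraries were compared by the root mean square difference of log2 CPM, each gene centred on its own mean. From the median profile of the 9 members, Nhlh2 differed least (0.093), followed by Ebf3 (0.110), Lhx1 (0.119), Lhx5 (0.161) and Trp73 (0.184), and Ndnf (0.329), Calb2 (0.350), Car10 (0.358) and Reln (0.377) differed most. Tested genes other than members were ranked too, leaving out predicted genes, clones and pseudogenes. Those with the profile most like that of Reln were Unc79, Sh3pxd2a, Zfp398, Arrb1 and Rgs12, at 0.044 to 0.056. They were picked for following Reln over the 8 libraries, so changes like that of Reln follow from the choice. Their log2 fold changes lay between 0.36 and 0.43, and between 0.26 and 0.36 with Xist status as a covariate. Those most like the median profile were Minar2, Adamts9, Scn9a, Ero1lb and Tmem229a, at 0.076 to 0.108. Their log2 fold changes lay between −0.27 and 0.047 and did not pass, and Minar2 passed without TSA 3 (−0.42, edgeR adjusted p = 0.00428).

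H3K9ac was seldom listed at the starts of these genes in every library. A peak within 1 kb of a start was present in all 8 lists for 1 of 9 genes, Car10, beside 69.9% of 11059 genes with RNA that passed the filter and a start in the promoter table. Calb2, Lhx5 and Ndnf have no entry in that table, so each end of the gene was used. The Car10 peaks lay in 4 separate regions, none of which was in all 8 lists. The lists held 22668 (Vehicle 4) and 32248 (TSA 3) peaks at the lowest and 41331 to 61217 in the other 6, so a missing peak in the former pair goes with a short list. The peak calls and their fold enrichments are the authors' own and describe each list by itself.

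Trp73 had a peak at its upstream start in 7 lists, all but Vehicle 4, in a region of 1355 bases (chr4:154139388-154140742) that spans the sequence shown for it. No list had a peak within 1 kb of its internal start, the one with 6 CpG in the sequence shown above. Reln had peaks in 6 lists, absent in Vehicle 4 and TSA 3, with fold enrichments of 4.38 to 9.23. They flanked the start on both sides: 5 lists had a peak at chr5:22343713-22344307, inside the gene, and 5 at chr5:22344957-22345593, upstream of the whole sequence shown. The lists with a Reln peak numbered 3 of 4 in Vehicle and 3 of 4 in TSA, whereas its RNA was higher in all 4 TSA libraries. Ndnf had peaks at 1 of its ends in the same 6 lists as Reln.

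Nhlh2 had a peak at its start (chr3:102010103-102010482) in TSA 2, 3 and 4 and in no Vehicle list, overlapping the last bases of the sequence shown. A second region inside the gene, chr3:102010786-102013321, was listed in all 4 Vehicle and all 4 TSA libraries. The length covered by peaks in Nhlh2 and 10 kb on each side was 825 to 1377 bases in Vehicle and 1266 to 2868 bases in TSA, the largest being in TSA 4, which has the longest list. The numbers of the H3K9ac and RNA libraries are not tied to each other by the labels, so their values were set side by side by group. With 4 lists a group and lists of unequal length, the difference in the number of lists was not tested.

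The other starts were listed less often. Lhx1 had a peak in Vehicle 1 and 3 and TSA 1 and 4. Calb2 had a peak at 1 end in TSA 2 and 4 and in no Vehicle list, while its RNA was lower in TSA. Those lists are the longest (53285 and 61217 peaks), and their peaks at that end did not overlap each other. Lhx5 and Ebf3 had a peak in Vehicle 3 alone. The Ebf3 promoter nevertheless held 43 CpG in 250 bases, more than that of any other member with an entry.

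**Figure D4:**
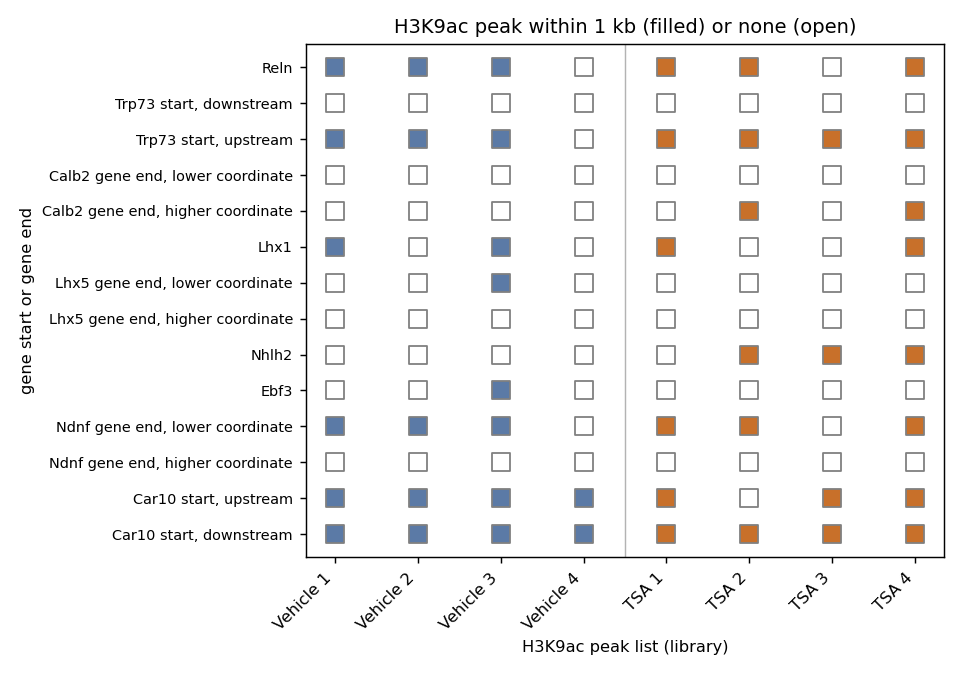
H3K9ac peak within 1 kb of each annotated start, or of each gene end where the promoter table has no entry (rows), in each of the 8 peak lists (columns); filled squares mark a peak. Car10 is filled in all 8 lists at its downstream start, Reln is open in Vehicle 4 and TSA 3, and Nhlh2 is filled in TSA 2, 3 and 4 alone.

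Within the 9 genes and 10 kb on each side, the merged peaks of all lists gave 60 regions. Of these, 38 (63.3%) were in a single list and 4 (6.67%) in all 8, beside 57.3% and 11.8% of all 104737 merged regions. The 4 regions in all lists were the one inside Nhlh2, one at the start of Wrap73 next to Trp73, and a pair at Aatf next to Lhx1. Trp73 held 20 of the 60 regions, 17 of them in 1 list each. TSA 4 was the source of 13 of the 38 regions seen in 1 list.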

How the data were processed

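TruSeq RNA libraries, whose kit keeps no strand information, were made from TRIzol RNA, per the labels' protocols. What the authors deposited for RNA is 1 raw count per Ensembl gene and library. Submitters' processing notes name the build mm10, SAMtools and MACS2, and the sources used here give no aligner, counter or annotation. Counts of near-identical genes are uncertain. H3K9ac peaks were called per library with MACS2 2.1.0.20140616 at a q-value limit of 0.1 against the same input of 18937878 tags in both groups, per the file headers. The labels list an input for each treatment, and which of them was used is not given in the sources used here. Each deposited peak has a pileup signal, a fold enrichment (its ratio to the local background), and −log10 values for p-value and q-value. Lists rested on 11824246 to 24075842 tags, per the file headers.

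The test was that of edgeR 4.0.16 (R 4.3.3; filterByExpr, TMM, quasi-likelihood test with robust prior, no covariate), with Benjamini-Hochberg adjustment over 15000 genes and a threshold of 0.05. The standard error is the change divided by the square root of F. CPM were computed on TMM-scaled totals. Alternatives used DESeq2 1.42.0, limma 3.58.1, RLE factors, no filter, a replicate block, lane, Xist status, the span trend and left-out libraries, and for H3K9ac a −log10 q of at least 2, a window of 500 bases and an overlap of 50%. The RNA test was tried on simulated counts with a log2 change of 1 in 198 genes. It recovered 80.8% of these and called 21 unchanged genes. The 21 are a larger share of its calls than the threshold of 0.05 allows, so adjusted p just under 0.05 need care. No replicate pair agreed within sampling noise (chi-square per degree of freedom 3.12 to 36.0). Promoters are from RefSeq (GRCm38.p6), which matched 6 of 9 members. Lanes were read from names in the deposit, which carry the treatments as the labels do and an unexplained letter that differs between the groups.

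The members and the gene lists were chosen with earlier results of these data known. Named were all members, and in each list up to 4 genes of smallest p plus called genes that went against their list. All tested genes of the list of relatives were named too. So were the 5 profiles nearest to Reln and to the members' median (mean log2 CPM above 0, without predicted genes, clones and pseudogenes). Some genes of the lists are not reported here and were left out of the counts and sums.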

Additional observations from a re-analysis of the deposited data

Results flagged for a closer look

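Nhlh2 had 69.8 CPM in TSA 3, far from the 46.3, 47.3 and 46.3 CPM of the other TSA libraries: its gap to the nearest of them was 0.955 of the whole range of the group. Gaps were searched in 18 groups of 4 libraries (9 genes, Vehicle and TSA) against Dixon's limit, which chance passes in about 1 of 20 groups, and this gap was the one beyond it. TSA 3 also had the highest level of the TSA libraries for 6 other members and for 9 of 12 genes of the thalamic eminence and thalamus.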

How the results depend on the processing

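Over 153 alternative values of the 9 members, 131 kept direction and side of the threshold, 3 no longer passed, 4 newly passed and 15 changed sign. Reln passed in 15 of 17 alternatives and Calb2 in 16 of 17. The number of members that rose was 0 with Xist status or the span trend removed, and 1 otherwise. The number that fell was 0 with Xist status, 2 with the span trend removed and 1 to 2 with a library left out. Over all genes, Xist status gave 757 rises and 818 falls, against 2314 and 2640. The members' sign changes were all among changes that did not pass. Car10 had −0.10 with limma-voom, −0.11 with the replicate block, −0.038 with lane, −0.73 with Xist status, −0.34 with the span trend removed and −0.15 without Vehicle 1 and 4. Without Vehicle 1 and 4, Lhx1 had 0.12, Lhx5 0.020 and Nhlh2 0.019, and with the span trend removed Nhlh2 had 0.045. With a library left out, Reln ranged from 0.41 to 0.48, Calb2 from −0.88 to −0.60, Lhx1 from −0.30 to 0.011, Lhx5 from −0.32 to 0.066 and Car10 from −0.48 to 0.20. The cause was not tested.

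Among other genes, Xist status gave −0.28 for Otx2, −0.061 for Scn9a and −0.11 for Vldlr, and the span trend −0.12 for Scn9a and 0.14 for Car11, which had 0.10 without Vehicle 1 and 4. With a library left out, the changes of sign lay in the ranges −0.016 to 0.33 (Zic1), −0.021 to 0.43 (Zic4), −0.24 to 0.51 (Otx2), −0.16 to 0.13 (Scn9a), −0.21 to 0.0093 (Ero1lb), −0.20 to 0.025 (Car11) and −0.88 to 0.18 (Ebf2). Of 47 called genes named beside the members, 28 did not pass with Xist status, at most 5 in any other alternative. Of the 28, 11 had a change as large or larger in that fit.

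Whether replicate numbers pair the libraries stayed undecided. Same-numbered correlations of deviations were low but all above 0 (0.097, 0.085, 0.070 and 0.111). Vehicle 3 and 4 were closest to their own number, and Vehicle 1 and 2 were not. With the replicate block, 2598 genes rose and 2744 fell, more than the 2314 and 2640 without it. Reln then had 0.44 and Calb2 −0.75, both passing. The count of members with an H3K9ac peak at the start in all lists was 0 when a peak had to cover 50% of the window, and 1 to 2 with a list left out. Peak lists of unequal length limit what a missing peak can show.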
